A study of Mus musculus with 18 samples.

Results

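The genes described here are 10 genes of sebum lipid production, Awat1, Awat2, Far2, Dgat2l6, Dgat2, Soat1, Cidea, Scd3, Mc5r and Mgst1. They were chosen by name, with earlier results of these data known, and each matched 1 of the 55401 genes listed in the skin table. RNA was sequenced from the skin and lung of female wild-type (WT) mice in 3 groups of 3 libraries, 9 libraries per tissue. Control mice received no treatment. The group labelled AD, for atopic dermatitis, received 4 nmol calcipotriol, a vitamin D analogue that inflames mouse skin, together with 50 µg ovalbumin, a protein allergen, over 28 days. The La-Cer group received the same agents with an emollient that contains linoleic acid and ceramide. The labels name no group that received the emollient alone, and they do not state the animals' age, the substrain or the skin site. They also do not state that the replicates of a group were separate animals, so p-values measure only the spread between these libraries, which may be technical.

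Sebaceous glands sit beside hair follicles and release sebum when their mature cells, the sebocytes, burst. Mouse sebum is rich in wax esters, sterol esters and diol esters. To make a wax ester, a fatty acid is desaturated or elongated, part of it is reduced to a fatty alcohol, and an acyltransferase joins the alcohol to a second fatty acid. Related acyltransferases make triacylglycerol or cholesterol ester, and the products are stored in lipid droplets.

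Skin libraries held 13472283 to 18647521 counts and lung libraries 15904723 to 19338972. Levels are in CPM, counts scaled to library size after TMM, a between-library normalisation, and are given for replicates 1, 2 and 3 of a group in that order. A gene was called when its adjusted p in edgeR's quasi-likelihood test was under 0.05. All 10 genes passed the filter on low counts in skin. The tissue label was checked with epidermal markers, whose summed level was 6710 to 35541 CPM in skin and 8.6 to 42.5 CPM in lung. Long transcripts stood differently in the groups: the longest quintile of genes lay 0.24 to 0.75 log2 units above the shortest in control skin, at -0.96 to -0.25 in AD skin and at -0.28 to 0.43 in La-Cer skin, relative to the mean of the 9 libraries. The first La-Cer library stood apart from the other La-Cer libraries for most of the 10 genes, and the La-Cer results of these genes are given with and without it. Because it was singled out by the levels of these genes, a shift on leaving it out was given by that choice. In bulk skin, a change in the number of sebocytes and a change in RNA per sebocyte cannot be told apart.

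In control skin the most abundant of the 10 genes for its exonic size was Mgst1, at 128 ± 58.5 FPKM (SD, n = 3). FPKM are the authors' counts scaled by the gene's exonic size in bases and by library size. Dgat2 followed at 36.2 ± 12.3 and Cidea at 27.8 ± 3.68 FPKM. Far2 (9.97 ± 1.46), Soat1 (9.62 ± 6.16), Scd3 (9.52 ± 3.18) and Awat1 (9.2 ± 3.47 FPKM) did not differ from each other beyond their spread. Mc5r and Awat2 stood at 5.08 ± 1.68 and 4.87 ± 1.37 FPKM, also within their spread. Dgat2l6 was the lowest at 0.313 ± 0.241 FPKM.

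Wax ester enzymes stood higher in AD skin than in control skin. Awat2 rose 8.11-fold, and the smallest gene by level, Dgat2l6, rose 20.3-fold. Awat1 and Far2 were 9.07-fold and 7.73-fold higher and lay just outside the threshold. Together with Cidea, 3 of the 10 genes were called higher and 0 lower. Across all 16956 genes tested, the same test called 3.42% higher and 3.44% lower, 6.86% in all. At an unadjusted p under 0.05 there were 6 of the 10, beside 28.9% of all genes tested. The 10 genes had a median log2 fold change of 2.19, beside -0.05 over all genes tested. For 7 of the 10 genes the lowest AD library lay above the highest control library, which held for 16.3% of all genes tested. The reverse held for 0 of the 10 and for 18.2% of all genes tested. The 10 genes and the lists below were chosen with earlier results known, so such shares describe them and are no test.

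Awat2 encodes an acyl-CoA wax alcohol acyltransferase that joins fatty alcohols to fatty acids. It stood at 6.11, 10.8 and 12.8 CPM in control, at 40.1, 95.4 and 105 in AD and at 56.7, 9.73 and 9.65 in La-Cer. Every AD library exceeded every control library, and 1 of the 3 La-Cer libraries lay in the AD range while the others lay in the control range. The log2 fold change in AD was 3.02 ± 0.73 (SE, edgeR quasi-likelihood adjusted p = 0.0454).

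Awat1, a second wax alcohol acyltransferase, stood at 6.35, 15.1 and 15.3 CPM in control, at 56.6, 145 and 131 in AD and at 182, 20 and 22.8 in La-Cer. The first La-Cer library was the highest of all 9, and the other La-Cer libraries lay between the control and AD ranges. The log2 fold change in AD was 3.18 ± 0.86, which did not pass (edgeR adjusted p = 0.0528). Awat1 counts per Awat2 count ran from 1.04 to 1.4 in control, from 1.24 to 1.52 in AD and from 2.05 to 3.21 in La-Cer.

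Dgat2l6 belongs to the same acyltransferase family as Dgat2 and the wax synthases. It stood at 0.467, 1.11 and 2.84 CPM in control, at 14.6, 34.3 and 40.8 in AD and at 5.67, 0.767 and 1.24 in La-Cer. All AD libraries exceeded all libraries of both other groups, including the first La-Cer library, where Awat1 was highest. The log2 fold change in AD was 4.34 ± 0.90 (edgeR adjusted p = 0.0413). Dgat2l6 counts for every 100 Awat1 counts were 7.35, 7.35 and 18.6 in control. They were 25.7, 23.6 and 31.2 in the AD libraries, against 3.11, 3.84 and 5.44 in the La-Cer libraries. This ratio was lower in every La-Cer library than in every control or AD library. Against control it rests on few Dgat2l6 counts, 10, 18 and 51 in control and 73, 16 and 23 in La-Cer, and it was not tested.

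**Figure D1:**
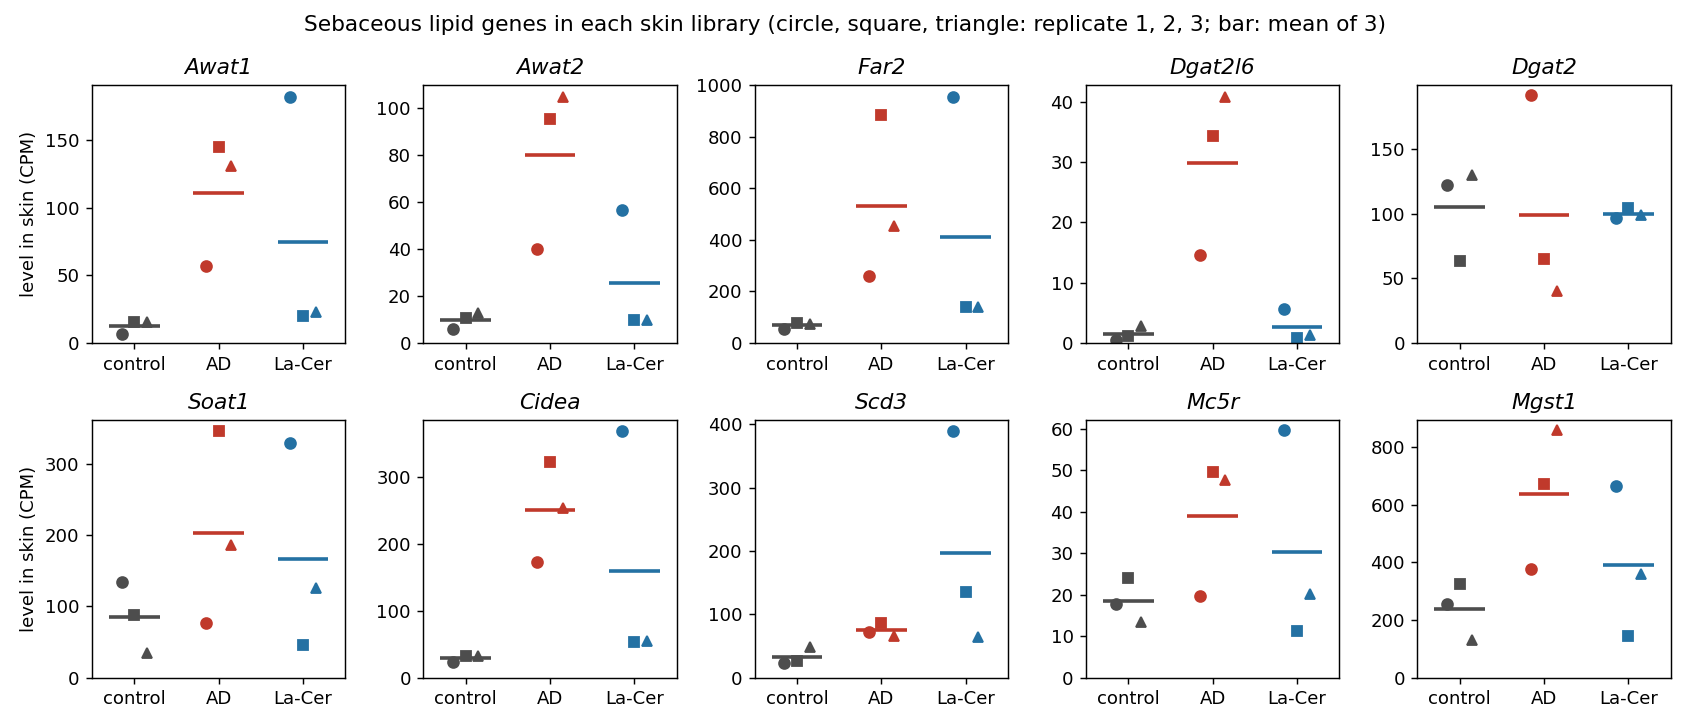
Level of each of the 10 genes (y axis, CPM, scale differs by gene) in the 9 skin libraries by group (x axis), with circles, squares and triangles for replicates 1, 2 and 3 and a bar for the mean of 3. The 3 AD libraries lie above control for 7 genes, and the first La-Cer library lies above the lowest AD library for all genes but Dgat2l6.

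Awat2, Dgat2l6 and Awat1 lie close together on the X chromosome (GRCm38). Awat2 (ENSMUSG00000031220) spans 100402221 to 100442717 on the minus strand. Dgat2l6 (ENSMUSG00000067597) spans 100524838 to 100546144 and Awat1 (ENSMUSG00000015665) spans 100572251 to 100578205, both on the plus strand. The cluster covers 175985 bases. Igbp1, which encodes a regulatory protein of protein phosphatases, lies between Awat2 and Dgat2l6 and stood at log2 0.24 ± 0.24 in AD (edgeR adjusted p = 0.54). The tested protein-coding genes within 200000 bases on either side also were not called: Eda stood at log2 -0.42, Pdzd11 at 0.36, Kif4 at -0.70, Gdpd2 at -0.94 and Dlg3 at -0.52, with edgeR adjusted p from 0.223 to 0.542. Transcript windows of 50 bases shared with other genes made up 0% of Awat1 and Awat2 and 0.435% of Dgat2l6, so each gene's reads could be told from those of its neighbours.

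**Figure D2:**
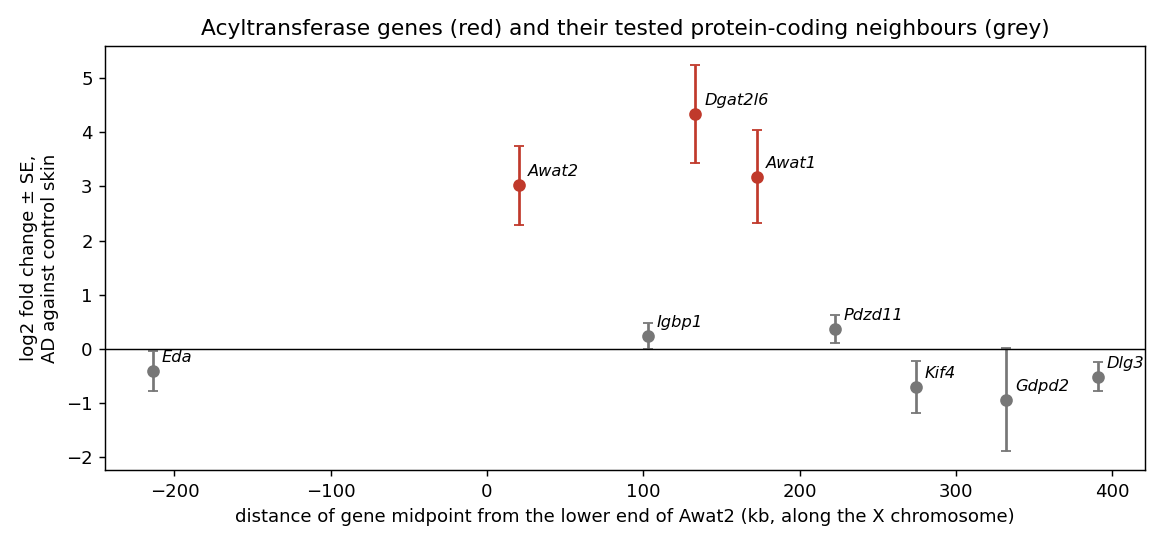
Log2 fold change with SE in AD against control skin (y axis) for the 3 acyltransferase genes (red) and their tested protein-coding neighbours (grey), by the distance of the gene's midpoint from the lower end of Awat2 (x axis, kb). The red points lie at 3.02, 4.34 and 3.18 and the grey points between -0.94 and 0.36.

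The upstream sequences of this cluster are shown because its 3 genes stood higher together in AD skin while the gene between them did not. They are the 250 bases before the annotated start on the gene's own strand, from RefSeq on GRCm38.p6, with the last 40 bases before the start in capitals, where a TATA box lies in promoters that have one. Awat2 has 2 annotated starts.
Awat1 (chrX:100571997-100572246, plus strand): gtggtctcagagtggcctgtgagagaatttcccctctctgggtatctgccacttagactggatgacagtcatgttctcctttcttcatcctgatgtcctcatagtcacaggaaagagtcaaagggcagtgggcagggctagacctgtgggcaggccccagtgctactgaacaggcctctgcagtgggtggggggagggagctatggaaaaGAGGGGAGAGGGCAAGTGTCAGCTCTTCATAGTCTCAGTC
Dgat2l6 (chrX:100524588-100524837, plus strand): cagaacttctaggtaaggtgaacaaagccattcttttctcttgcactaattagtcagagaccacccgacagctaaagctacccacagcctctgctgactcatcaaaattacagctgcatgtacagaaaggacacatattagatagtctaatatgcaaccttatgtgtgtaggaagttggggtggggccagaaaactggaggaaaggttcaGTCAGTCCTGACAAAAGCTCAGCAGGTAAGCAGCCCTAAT
Awat2, start 1 (chrX:100412588-100412837, minus strand): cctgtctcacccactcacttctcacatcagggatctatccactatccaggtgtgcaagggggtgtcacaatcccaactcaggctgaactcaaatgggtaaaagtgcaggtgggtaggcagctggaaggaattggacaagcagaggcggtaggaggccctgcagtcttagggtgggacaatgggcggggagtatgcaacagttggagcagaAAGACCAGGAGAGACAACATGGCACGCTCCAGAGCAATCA
Awat2, start 2 (chrX:100442718-100442967, minus strand): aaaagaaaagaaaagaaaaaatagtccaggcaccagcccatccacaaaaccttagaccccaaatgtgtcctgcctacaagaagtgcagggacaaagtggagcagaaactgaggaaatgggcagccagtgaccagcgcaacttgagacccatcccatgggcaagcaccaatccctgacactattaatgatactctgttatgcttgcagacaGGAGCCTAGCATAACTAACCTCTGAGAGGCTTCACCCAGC
For Cidea, Dgat2 and Mc5r the RefSeq promoter set used here held no window. For the other 7 of the 10 genes it held such windows at 9 starts, each with a further 50 bases. In these windows 4 motifs were searched on both strands: AGGTCA, a nuclear receptor motif, TCACCCCAC, a sterol regulatory element, the E-box CACGTG and TATAAA. Of 32851 promoters, 16.3%, 0.551%, 7.15% and 13.6% held them in that order. None of the 9 windows held these exact letters.

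Far2 (ENSMUSG00000030303, chromosome 6, 148047259 to 148182758) encodes a fatty acyl-CoA reductase that makes the fatty alcohols used by the wax synthases. It stood at 55.5, 78.2 and 72.8 CPM in control, at 258, 884 and 454 in AD and at 957, 138 and 141 in La-Cer. All AD and La-Cer libraries exceeded all control libraries. The log2 fold change in AD was 2.95 ± 0.79 and did not pass (edgeR adjusted p = 0.0508). Far2 overlaps Ergic2 on the opposite strand and shares 10.8% of its 50-base windows with other transcripts, mostly of Ergic2. Ergic2 itself stood at 37.8, 43.6 and 33.4 CPM in control and at 30.3, 47.7 and 34 in AD (log2 -0.03 ± 0.28, edgeR adjusted p = 0.945). The antisense genes Far2os1 and Far2os2 held 7 and 2 counts over all 9 skin libraries.

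Cidea (ENSMUSG00000024526) encodes a lipid droplet protein that enlarges droplets and is needed for normal sebum lipid storage in mice. It stood at 23.3, 32.3 and 32.3 CPM in control, at 173, 322 and 254 in AD and at 368, 53.5 and 54.4 in La-Cer. All AD libraries lay far above all control libraries, and all La-Cer libraries also lay above control. Cidea rose 8.52-fold in AD (log2 3.09 ± 0.72, edgeR adjusted p = 0.043). Brown adipocytes express Cidea too. Their 6 markers summed to 65.4, 71.6 and 255 CPM in control, to 494, 438 and 525 in AD and to 282, 67.8 and 43.8 in La-Cer. Cox8b and Cox7a1, mitochondrial subunits that muscle also makes, supplied most of this sum and lay wholly higher in AD than in control. Of the 5 markers tested 0 were called in AD, beside 3.42% of all genes called higher and 3.44% lower. Skeletal muscle markers summed to 14867, 14887 and 51228 CPM in control and to 36714, 34796 and 7749 in AD, and the part of muscle was not tested. The defining brown fat gene Ucp1 stood at 0 to 0.37 CPM in control, 0 to 0.122 in AD and 0.108 to 0.575 in La-Cer. The 8 white adipocyte markers were detected in each skin library and summed to 1140 to 2106 CPM in control, 1371 to 4372 in AD and 764 to 2662 in La-Cer. Of these, 0 were called higher and 1 lower, beside 3.42% and 3.44% of all genes tested. The 1 was Lep, the leptin gene (log2 -2.03 ± 0.51, edgeR adjusted p = 0.0457). The part of fat cells in the Cidea result was not tested.

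Dgat2 (ENSMUSG00000030747, chromosome 7, 99153658 to 99182719), which catalyses the last step of triacylglycerol synthesis in many tissues, stood apart from the other genes. It stood at 122, 63.6 and 130 CPM in control, at 192, 64.6 and 39.9 in AD and at 96.8, 104 and 98.8 in La-Cer. The groups overlapped, and AD held both the highest and the lowest library. Its log2 fold change in AD was -0.09 ± 0.51 (edgeR adjusted p = 0.921), the only negative value among the 10 genes. Over the 9 skin libraries, which share the same groups and libraries for each gene, Dgat2 correlated with the mean standardised level of the 10 genes at Pearson's r = -0.32, against 0.67 to 0.99 for the others. Each gene is itself part of that mean, which raises its r.

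Soat1 (ENSMUSG00000026600, chromosome 1, 156424525 to 156474331) encodes the acyltransferase that esterifies cholesterol. It stood at 134, 87.9 and 34.7 CPM in control, at 76.1, 346 and 186 in AD and at 329, 46 and 126 in La-Cer. All 3 groups overlapped (AD against control log2 1.24 ± 0.76, edgeR adjusted p = 0.305). Scd3 (ENSMUSG00000025202, chromosome 19, 44203269 to 44244016) is a stearoyl-CoA desaturase found mainly in mouse sebaceous and Harderian glands. It stood at 23.5, 25.6 and 48.5 CPM in control, at 72.3, 86.5 and 66 in AD and at 389, 135 and 64.9 in La-Cer. Both treated groups lay wholly above control, and the La-Cer libraries were spread most (AD against control log2 1.20 ± 0.56, edgeR adjusted p = 0.186).

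Scd3 shares 6.57% of its 50-base windows with other genes, mostly its paralogs Scd1, Scd2 and Scd4. A part of its reads could have been counted elsewhere, and reads of those genes could have been counted as Scd3. Neither was tested. Scd1, the more abundant desaturase, stood at 1826, 1105 and 1315 CPM in control, at 2735, 7279 and 7959 in AD and at 5768, 1154 and 1213 in La-Cer. In AD it was at log2 2.08 ± 0.69 (edgeR adjusted p = 0.0823). Scd2 stood at log2 -1.40 ± 0.76 (edgeR adjusted p = 0.25), and Scd4, with 27, 10 and 20 counts over control, AD and La-Cer, was too low to test.

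Mc5r (ENSMUSG00000007480) encodes the melanocortin receptor through which sebum output is raised in mice. It stood at 17.8, 24.1 and 13.5 CPM in control, at 19.6, 49.5 and 47.8 in AD and at 59.8, 11.2 and 20.2 in La-Cer. The first AD library lay within the control range, and the change did not pass (log2 1.08 ± 0.58, edgeR adjusted p = 0.246). Mgst1 (ENSMUSG00000008540, chromosome 6, 138140316 to 138156755), a microsomal glutathione transferase abundant in sebocytes, stood at 255, 326 and 130 CPM in control, at 375, 673 and 858 in AD and at 666, 145 and 359 in La-Cer. The AD libraries lay above control, but the change did not pass (log2 1.42 ± 0.57, edgeR adjusted p = 0.128).

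The calls in AD skin lay close to the threshold. With the length trend removed from each library, 0 genes of the whole table and 0 of the 10 were called, with Awat2 at log2 2.69, Cidea at 2.48 and Dgat2l6 at 4.46 (edgeR adjusted p = 0.0821, 0.0861 and 0.0775). With the replicate number as a block 0 of the 10 and 0 genes in all were called, and without the filter on low counts 1 of the 10, Dgat2l6. None of the 10 was called without control replicate 1, control replicate 2, any 1 AD replicate or La-Cer replicate 3, while without control replicate 3 only Dgat2l6 was called. Awat1 and Far2 were called as well, which made 5 of 10, without La-Cer replicate 1 or 2, with the 6 control and AD libraries alone, with RLE scaling, where Awat1 was only just under the threshold, and with DESeq2. Under all 16 alternatives the 9 positive log2 fold changes kept their sign.

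**Figure D3:**
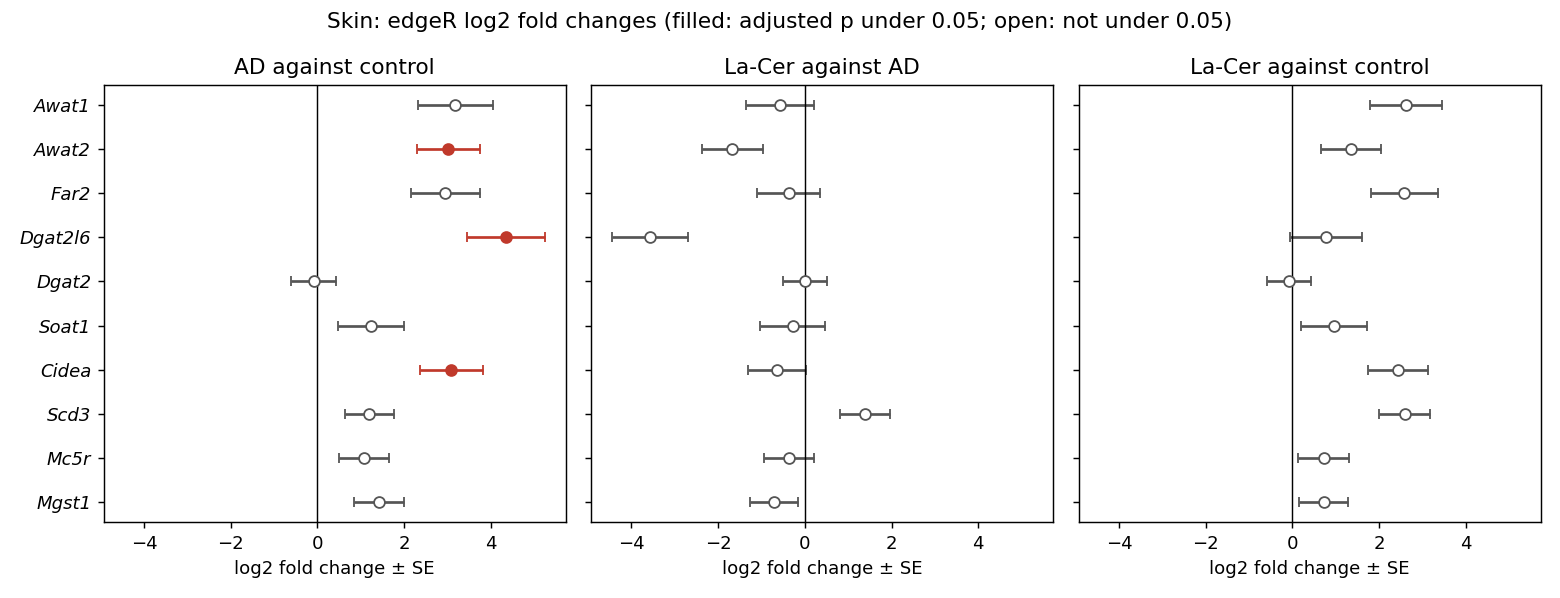
Log2 fold change with SE (x axis) of the 10 genes (y axis) in the 3 skin comparisons, with filled points for an edgeR adjusted p under 0.05. In AD against control 9 points lie above 0 and 3 are filled, in La-Cer against AD 8 lie below 0, and in La-Cer against control 9 lie above 0, with 0 filled in either.

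The second comparison asks how the emollient group differed from AD. None of the 10 genes was called, and edgeR called 0% of all genes tested in either direction, with 3198 genes at an unadjusted p under 0.05, 9.84% higher and 9.02% lower (18.9% in all). Of the 10 genes 3 had such a p. DESeq2 called 871 genes, of which 1 was among the 10. The AD libraries are the same as in the first comparison. The 10 genes had a median log2 fold change of -0.47, beside 0.02 over all genes tested, and 8 were negative. Dgat2l6 was the 1 gene without overlap, at log2 -3.57 ± 0.87 (edgeR adjusted p = 0.141). Non-overlap in the lower direction held for 9.48% of all genes tested. It passed in DESeq2 alone (adjusted p = 0.000731). Awat2 stood at log2 -1.67 ± 0.70 (edgeR adjusted p = 0.241) and Scd3 in the other direction at 1.39 ± 0.57 (edgeR adjusted p = 0.232). The other 7 genes lay between -0.71 and 0.01.

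The La-Cer libraries did not form one group for these genes. The mean standardised level of the 10 genes was 1.10 in the first La-Cer library, the highest of the 9, and -0.59 and -0.28 in the others. It was -0.79, -0.65 and -0.71 in control and 0.33, 0.93 and 0.67 in AD. The 10 genes took 0.297% of all counts in the first La-Cer library, 0.0756% and 0.0929% in the others, 0.0476% to 0.074% in control and 0.116% to 0.239% in AD. The first La-Cer library also had the lowest total of the 9. Without it, La-Cer against AD stood at log2 -2.36 for Awat1, -3.04 for Awat2, -2.20 for Cidea, -1.92 for Far2 and -4.88 for Dgat2l6 in edgeR (adjusted p = 0.116 to 0.122), and none was called. With it, Awat1 stood at -0.57, Cidea at -0.65 and Far2 at -0.37. Scd3 moved from 1.39 to 0.43, and the median of the 10 genes from -0.47 to -1.62.

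**Figure D4:**
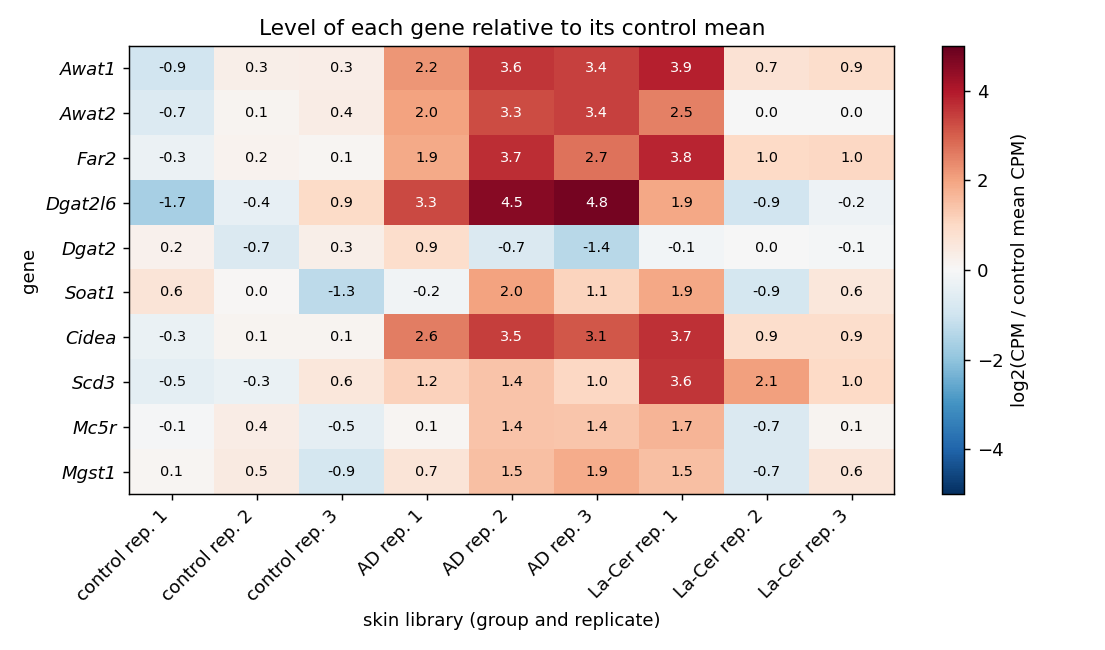
Log2 ratio of each gene's level to its own control mean (colour and number) in the 9 skin libraries (x axis) for the 10 genes (y axis). The first La-Cer column lies outside the AD range most at Scd3, at 3.58 against 1.02 to 1.41 in AD, and at Dgat2l6, at 1.95 against 3.31 to 4.79, and the Dgat2 row runs from -1.40 to 0.87 with no group apart.

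The third comparison set La-Cer skin against control, with the same libraries as above. None of the 10 was called and edgeR called 0% of all genes tested, with 968 at an unadjusted p under 0.05 (5.71%, 3.73% higher and 1.98% lower) and 4 of the 10 genes among them, while DESeq2 called 61 genes. The 10 genes had a median log2 fold change of 1.16, beside -0.05 over all genes tested. The 3 La-Cer libraries lay above all control libraries for Awat1, Cidea, Far2 and Scd3, which is 4 of 10, where 6.48% of all genes tested did so. Non-overlap in the lower direction held for 0 of the 10 and 7.05% of all genes. Their log2 fold changes were 2.62 ± 0.84, 2.44 ± 0.70, 2.58 ± 0.77 and 2.59 ± 0.59 (edgeR adjusted p = 0.836 for each). DESeq2 called Cidea, Far2 and Scd3 (adjusted p = 0.0456, 0.0453 and 0.00559). Without the first La-Cer library the same 4 genes stood at log2 0.81, 0.89, 1.03 and 1.63, and Awat2, Dgat2l6 and Mc5r moved from 1.35, 0.77 and 0.72 to -0.03, -0.54 and -0.23. The median of the 10 genes moved from 1.16 to 0.05. Across the 9 skin libraries the most alike pairs were Awat1 and Cidea (Pearson's r = 0.99), Awat1 and Far2 (0.98) and Cidea and Far2 (0.98).

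Other genes of sebum lipid supply were counted in lists, beside the 3.42% of all genes tested that edgeR called higher in AD skin and the 3.44% called lower, with a median log2 fold change of -0.05. Of 25 tested genes of fatty acid synthesis, elongation and desaturation, 4 were called higher and 0 lower, with a median of 0.81 and 5 negative values. Elovl3, an elongase of sebaceous and brown fat cells, rose from 58.3, 49.9 and 33.6 CPM in control to 296, 978 and 520 in AD (log2 3.66 ± 0.76, edgeR adjusted p = 0.0413). In La-Cer it stood at 534, 67.5 and 140, so the first library was again in the AD range. Elovl4, which makes very long chains, rose from 339 ± 86.2 to 2784 ± 1492 CPM (SD, n = 3), and Elovl7 from 32 ± 3.12 to 178 ± 91.8 CPM. Me1, which makes NADPH for lipid synthesis, rose from 120 ± 43.7 to 445 ± 68.1 CPM. Fasn, the fatty acid synthase, stood at 510 ± 180 against 765 ± 398 CPM and did not pass (edgeR adjusted p = 0.477).

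Among 16 genes of sebocyte identity and differentiation 3 were called higher and 0 lower, beside the same 3.42% and 3.44% of all genes. The median log2 fold change of the 16 was 1.07, with 12 positive and 4 negative values. Elovl3 and Plin2 also count in other lists. The 3 genes were Elovl3, the droplet coat gene Plin2 and Krt79, a keratin of the follicle canal and sebaceous duct. Plin2 stood at 95.1, 90.3 and 97.7 CPM in control, at 421, 424 and 506 in AD and at 631, 131 and 156 in La-Cer. Krt79 stood at 280, 355 and 426 CPM in control, at 1844, 2028 and 1296 in AD and at 2064, 988 and 1139 in La-Cer. Unlike Awat2 and Dgat2l6, Krt79 lay above control in each La-Cer library. Pparg, the nuclear receptor that drives sebocyte differentiation, stood at 13.7, 10.2 and 8.91 CPM in control, at 26.4, 33.6 and 16.1 in AD and at 50.2, 14 and 13 in La-Cer, and did not pass in AD (log2 1.21 ± 0.53, edgeR adjusted p = 0.158).

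Of 10 tested paralogs of the 10 genes, 2 were called higher in AD skin and 0 lower, where 3.42% and 3.44% of all genes were. The paralogs had a median log2 fold change of 1.21, with 2 negative values. Mgst2 rose from 7.9 ± 2.42 to 55 ± 18.8 CPM and Mgst3 from 132 ± 14.1 to 400 ± 67.5 CPM (SD, n = 3). Both encode membrane glutathione transferases related to Mgst1. Of 22 genes of triacylglycerol synthesis and the lipid droplet, Plin2 alone was called higher and 0 lower. This share was near the 3.42% of all genes called higher. The median of the 22 was 0.48, with 8 negative values. In La-Cer against AD and in La-Cer against control, edgeR called 0 genes of each of these lists. In La-Cer against AD, Mgst3 stood at log2 -1.45 ± 0.32 and G0s2, an inhibitor of fat breakdown, at -2.45 ± 0.65 (edgeR adjusted p = 0.141 and 0.147).

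Genes outside the 10, without predicted and clone-named genes, were ranked by how much their skin pattern was like that of the 10. The measure was Pearson's r with the mean standardised level of the 10 over the 9 libraries. Hsd17b12, a reductase of the fatty acid elongation cycle, and Cers4, a ceramide synthase, both reached r = 0.988. Snap91 (0.983), Ces4a (0.981), Msmo1 (0.979), Emc9 (0.979), Rdh12 (0.976) and Pctp (0.975) followed. Cers4 stood at 132, 166 and 101 CPM in control, at 384, 970 and 719 in AD and at 1280, 175 and 228 in La-Cer. Msmo1, a sterol demethylase of cholesterol synthesis, stood at 128, 134 and 119 CPM in control, at 268, 802 and 604 in AD and at 1128, 168 and 224 in La-Cer.

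The lung, which has no sebaceous glands, gave the background. Awat1 held 0 counts in the 3 control libraries, which allows up to 0.0592 CPM over the group, then 0, 1 and 0 counts in AD and 0, 2 and 2 in La-Cer. Dgat2l6 was counted 0, 0 and 1 times in the control libraries, 1 time in each AD library and 0 times in each La-Cer library, which allows up to 0.0524 CPM. Both were too low to test in lung. Awat2, Scd3 and Mc5r stood at 0.302 to 2.27 CPM and Far2 at 0.319 to 4.37 CPM over the 9 lung libraries. Soat1 (49.8 to 74.4 CPM) and Mgst1 (217 to 958 CPM) were found in lung at levels within or near their range in skin.

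Of the 8 genes tested in lung, 0 were called in each of the 3 comparisons. The same test called 0.0463% of 17272 genes in AD against control (0.00579% higher and 0.0405% lower), 1.91% in La-Cer against AD and 0.0347% in La-Cer against control. At an unadjusted p under 0.05 there were 2, 3 and 0 of the 8 genes, beside 20.9%, 25.5% and 3.17% of all genes tested (11.4% lower in the first comparison and 1.79% higher in the last). In AD against control 1 gene lay wholly higher and 0 wholly lower, beside 12.3% and 12% of all genes. In La-Cer against AD 1 gene, Mgst1, lay wholly higher and 3 wholly lower, beside 22.5% and 22.1%. The 3 were Far2, Mc5r and Dgat2l6, of which Dgat2l6 was too low to test. In La-Cer against control 1 gene, Soat1, lay wholly higher and 0 wholly lower, beside 5.64% and 5.69%. Far2 stood at 0.429, 1.4 and 1.99 CPM in control, at 3.17, 4.37 and 3.56 in AD and at 0.319, 0.767 and 1.17 in La-Cer. Its AD libraries did not overlap those of the other groups (AD against control log2 1.53 ± 0.56, edgeR adjusted p = 0.182, and La-Cer against AD -2.29 ± 0.58, adjusted p = 0.0668). In La-Cer against AD, Mc5r stood at -1.53 ± 0.49 and Mgst1 at 1.10 ± 0.46 (edgeR adjusted p = 0.104 and 0.172). Without control replicate 1, which shares no side of that comparison, edgeR called Far2 (adjusted p = 0.00681), Mc5r (0.0483) and Mgst1 (0.0168), and the number of genes called went from 330 to 4972. Without any other single library it lay between 0 and 27. Liver markers, of a tissue not sampled, summed to 263 CPM in that control library and to 4.49 and 17.8 CPM in the other control libraries. They summed to 3.11, 1.78 and 8.08 CPM in AD and to 48.3, 285 and 34 CPM in La-Cer. The part of liver markers in these counts was not tested.

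Cidea and Dgat2 varied widely among lung libraries. Cidea stood at 141, 60.7 and 7.37 CPM in control, at 1.37, 51.9 and 4.24 in AD and at 19.1, 4.91 and 14.6 in La-Cer. Dgat2 stood at 96.7, 72.4 and 33.5 CPM in control, at 7.29, 42.3 and 11.6 in AD and at 39.8, 24.1 and 35.2 in La-Cer. For both genes the first control library was highest and the first AD library lowest. The 8 white adipocyte markers, all detected in each library, summed to 3105, 746 and 385 CPM in control. They summed to 174, 665 and 121 in AD and to 627, 237 and 580 in La-Cer. The marker Lipe alone supplied 151 of the 174 CPM in the first AD library and 45.6 of the 121 CPM in the third. In those AD libraries the marker Adipoq stood at 0.239 and 1.86 CPM and the marker Cidec at 11.3 and 7.4 CPM. The 6 brown adipocyte markers summed to 1070, 335 and 70.1 CPM in control, to 33.3, 328 and 72.4 in AD and to 154, 64.3 and 139 in La-Cer. In AD against control Cidea stood at log2 -1.86 ± 1.25 and Dgat2 at -1.73 ± 0.62 (edgeR adjusted p = 0.413 and 0.177). The part of fat carried with the lung samples was not tested.

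**Figure D5:**
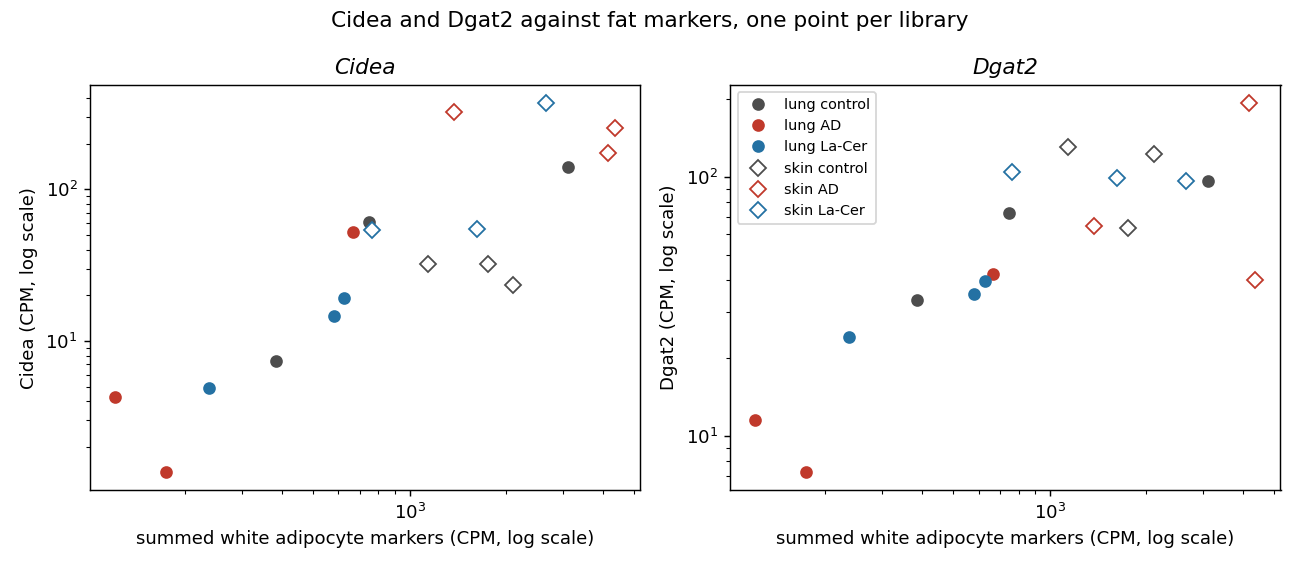
Level of Cidea and Dgat2 (y axes, CPM, log scale) against the summed white adipocyte markers (x axis, CPM, log scale) in the 9 lung libraries (filled circles) and 9 skin libraries (open diamonds), coloured by group. In lung, the first control library lies at the right end with 3105 CPM of markers and the highest Cidea and Dgat2. The first lung AD library lies at 174 CPM of markers, of which Lipe supplied 151 CPM. In skin the markers run from 1140 to 2106 CPM in control and from 1371 to 4372 CPM in AD.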

How the data were processed

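Per the labels' protocols, libraries came from 1.5 µg of total RNA (Eastep extraction, Promega) and a SMARTER mRNA-Seq kit. Per the submitters' processing notes, the build was GRCm38 and the tools included cutadapt 1.9.1 and bcl2fastq 2.17.1.14. The aligner, counting tool and strand setting were not given in the sources used here. Reads from overlapping genes on opposite strands therefore could not be told apart. Per the file headers, the deposited tables hold raw read counts per gene for 9 libraries of each tissue. They also hold the authors' FPKM, which equal the counts divided by exonic size and column total to within 0.0050 and were used only to order genes by level.

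Each tissue was fitted over its 9 libraries with edgeR 4.0.16 (R 4.3.3): TMM scaling, filterByExpr, robust quasi-likelihood fit and test. Adjusted p-values follow Benjamini and Hochberg, over every gene tested in the tissue. Levels are TMM-scaled CPM, and standardised levels use log2 CPM with a prior count of 2. Positions, overlaps and shared windows were checked in GENCODE vM21, where all 10 genes have the same coordinates. No molecular identifiers are named, so the floor of 3 counts covers counting error only.

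The alternatives were RLE scaling, DESeq2 1.42.0, no filter, a fit of 6 libraries alone, a block for replicate number, removal of a length trend per library, and leaving out each library. The labels number replicates alike in each group. Whether the numbers pair libraries was checked by correlating deviations from group means. Only in lung La-Cer against control did all 3 pairs exceed 0.1 (0.308, 0.133 and 0.192), and with the block edgeR called 0 genes there in place of 6, and 0 of the 10 either way. The 10 genes and the lists were chosen with earlier results of these data known. The text names all 10 genes, the called genes of each list (or those of smallest p), 6 further sebaceous genes and the Scd paralogs. It also names the 8 genes most alike with a mean of at least 1 CPM, without predicted and clone-named genes. Neighbours and overlapping genes were named by position.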

Additional observations from a re-analysis of the deposited data

How the results depend on the processing

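Over all 72 log2 fold changes examined, 53 kept their sign under all 16 alternatives each. In AD against control skin, the number of genes called went from 1163 to 2811 with DESeq2, 1908 without the filter and 590 with 6 libraries. It went to 0 with the replicate block, with the length trend removed and with both. Leaving out 1 library gave 0 to 1088. Of the 10 genes, 3 were called, 5 with RLE scaling, DESeq2 or 6 libraries, 1 without the filter, 0 with the replicate block or the length trend removed, alone or together, and 0 to 5 with 1 library left out. In AD against control skin no library correlated best with the one of its own number (0.115, -0.395 and -0.236). In La-Cer against AD skin, replicates 2 and 3 did (0.264 and 0.233). The labels do not state whether the numbers pair libraries. Leaving out a library leaves 2 in its group, and with the block fewer degrees of freedom remain. The cause of these moves was not tested, and leaving out a library also raised the number called in some comparisons.

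In La-Cer against AD skin 0 genes were called, 871 with DESeq2, 449 without the filter and 0 to 1 with 1 library left out, and of the 10 genes 1 with DESeq2. In La-Cer against control skin 0 were called, 61 with DESeq2 and 7 without the filter, and of the 10 genes 3 with DESeq2. In lung AD against control 8 genes were called, 20 with RLE scaling, 1207 with DESeq2, 134 without the filter, 0 with 6 libraries, 0 with the replicate block, 120 with the length trend removed, 18 with both, and 0 to 992 with 1 library left out. Of the 10 genes, DESeq2 called 1 there, Dgat2 (adjusted p = 0.0426). In lung La-Cer against AD 330 were called, 2180 with DESeq2, 4034 with 6 libraries, 12 with the replicate block, 63 with block and trend, and 0 to 4972 with 1 library left out. Of the 10 genes 1 was called with DESeq2 and 1 without the filter, Far2 in both, 3 with 6 libraries and 0 to 3 with 1 library left out. In lung La-Cer against control 6 were called, 18 with DESeq2, 11 without the filter, 0 with 6 libraries, 0 with the replicate block, 0 with block and trend, and 0 to 21 with 1 library left out.

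Log2 fold changes that changed sign were uncalled. With 1 library left out, Dgat2 in AD against control skin ran from -1.02 to 0.29. In La-Cer against AD skin, Far2 ran from -1.92 to 0.22, Soat1 from -1.23 to 0.36, Dgat2 from -0.37 to 0.94, Mc5r from -1.29 to 0.045 and Pparg from -0.90 to 0.34. In La-Cer against control skin, Awat2 ran from -0.025 to 1.74, Dgat2 from -0.34 to 0.15, Dgat2l6 from -0.54 to 1.71, Fasn from -0.65 to 0.29, Mc5r from -0.23 to 1.11 and Scd1 from -0.25 to 1.30. In lung AD against control, Awat2 ran from -0.68 to 0.14 and Scd3 from -0.32 to 0.39. In lung La-Cer against AD, Awat2 ran from -0.22 to 0.41 and Cidea from -1.12 to 2.19, and in lung La-Cer against control Awat2 ran from -0.57 to 0.20 and Mgst1 from -0.14 to 0.89.

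Under other settings, Pparg in La-Cer against AD skin stood at -0.008 with 6 libraries, -0.19 with the replicate block and -0.12 with block and trend. Fasn in La-Cer against control skin stood at 0.31 with the trend removed and 0.12 with block and trend. In lung AD against control Soat1 stood at -0.15 under each of these, and Scd3 at 0.009 with block and trend. In lung La-Cer against AD, Awat2 stood at -0.006 with the block, -0.18 with the trend removed and -0.21 with both, and Cidea at 0.26 with the block and 0.063 with both.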

Other observations

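Peroxisomes shorten fatty acids and begin the synthesis of ether lipids, and sebocytes are rich in them. Of 14 tested peroxisome and ether lipid genes, edgeR called 0 in AD against control skin, beside 3.42% of all genes called higher and 3.44% lower. The median log2 fold change of the 14 was 0.49, with 3 negative values, beside -0.05 over all genes tested. The smallest p belonged to Pex7, an import receptor of the peroxisome (log2 1.07 ± 0.31, edgeR adjusted p = 0.0587), Acaa1b, a thiolase of fatty acid shortening (1.27 ± 0.41, 0.076), and Scp2, a sterol carrier (1.31 ± 0.42, 0.0767). The 14 genes summed to 792, 723 and 857 CPM in the control libraries. They reached 1120, 1410 and 1189 CPM in the AD libraries, and 1511, 823 and 860 CPM in La-Cer, whose first library was again the highest of the 9.

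Other cell types also differed among skin libraries. The skeletal muscle markers summed to 2343 to 51228 CPM and the hair follicle shaft markers to 83.5 to 7713 CPM over the 9 libraries. Of these markers edgeR called 0 in each skin comparison, beside 6.86% of all genes tested in AD against control and 0% in both La-Cer comparisons. Of the hair list, 8 of 9 symbols were found. Macrophage markers summed to 53.2, 88.2 and 160 CPM in control and to 209, 277 and 299 in AD. All 6 had a positive log2 fold change (median 1.51, beside -0.05 over all genes tested). None of the 6 was called, beside 3.42% of all genes called higher and 3.44% lower. Liver markers, tested as a tissue not sampled, summed to at most 9.83 CPM in skin. In lung they summed to 263, 4.49 and 17.8 CPM in the control libraries, 3.11, 1.78 and 8.08 CPM in the AD libraries and 48.3, 285 and 34 CPM in the La-Cer libraries. In skin, lung club and alveolar type 2 markers summed to at most 70.5 and 20.7 CPM. In lung, edgeR called 2 of 6 skeletal muscle markers higher in La-Cer than in AD, beside 0.845% of all genes tested. Their sums were 414, 110 and 448 CPM against 14.2, 37.4 and 79.2 CPM. It called 0 markers of the other lists in any lung comparison. Of all genes it called 0.0463% in AD against control, 1.91% in La-Cer against AD and 0.0347% in La-Cer against control.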
